A study of Rattus norvegicus with 12 samples.

Results

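The make-up of each kidney cell type was compared between untreated obese and lean ZSF1 rats by single-nucleus RNA sequencing. Nuclei were chosen from the deposited table of nuclei as those whose rat belonged to the lean or the untreated obese group, which gave 115904 of 217132 nuclei and 6 of 12 rats, 3 a group. Every nucleus in the table carries an assignment by the authors at 3 levels, namely 25 clusters, 11 intermediate types and 8 broad types. Of the 8 broad types, 6 hold more than 1 cluster (23 clusters in all), and each of these 23 was expressed as a share of the nuclei of its own type in each rat. Podocytes and immune cells are 1 cluster each and therefore have no composition of their own at this level.

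The rats were male and of the strain ZSF1-LeprfaLeprcp/Crl. This same designation was given for both groups, while the paper treats lean against obese as a difference in genotype. Lean rats received no treatment. Obese rats, called untreated because they received no drug, were dosed with vehicle for 12 weeks from an age of 13 to 14 weeks. Genotype, obesity and dosing therefore cannot be told apart here. Of 6 lean rats and 10 obese rats on vehicle in the study, 3 each were sequenced from pieces of frozen quartered kidney, with 1 library a rat. Which parts of cortex and medulla a piece held was not given in the sources used here. Counts of single genes were not analysed, so the names of the clusters are those of the authors and were not checked against marker genes.

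The nephron is a chain of segments with separate tasks. The proximal tubule reclaims most of the filtered glucose, amino acids, salt and water; its convoluted part (PCT) comes first and its straight part (PST) follows, and its cells depend heavily on mitochondria. The loop of Henle (LOH) runs through the descending and ascending thin limbs (DTL, ATL) to the salt-reabsorbing thick ascending limb (TAL), which is followed by the distal convoluted tubule (DCT), the connecting tubule (CNT) and the collecting duct with its principal (PC) and intercalated cells (IC). In diabetic kidney disease, glomeruli, tubules, vessels and stroma can all be affected, and injured proximal tubule cells lose part of their mature programme and can express Spp1, which encodes osteopontin.

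In the text, values of single rats stand in the order RK1_4, RK3_4 and RK5_4 for lean and RK7_4, RK9_4 and RK16_4 for obese, the rats' names in the table. The retained nuclei numbered 16678, 15155 and 16911 in the lean rats and 10556, 43484 and 13120 in the obese rats, so that RK9_4 gave 64.7% of the obese nuclei. Each of these counts is above the number of nuclei that the paper states was loaded, by the most in RK9_4, and the reason was not tested. Depth and mitochondrial content moved with the groups. The median number of unique molecular identifiers (UMIs, 1 for each captured transcript) per nucleus was 2914, 2104 and 1688 in lean and 783, 901 and 1392 in obese rats, and the median share of UMIs from mitochondrial genes was 0.102%, 0.163% and 0% against 2.13%, 3.74% and 0.497%. Nuclei with under 1000 UMIs were 0.714%, 9.71% and 14.2% of lean and 62.2%, 72.7% and 24.2% of obese nuclei. Results were therefore also computed in nuclei with at least 1000 UMIs and in nuclei with at most 1% mitochondrial UMIs, and each rat was left out in turn. Between 31 and 248 cell barcodes were shared by 2 rats in the 15 pairs of rats.

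Changes within a type are given as differences in log odds (natural log, obese minus lean) with the standard error (SE). They were fitted by limma over all 12 rats of the 4 groups of the study, and p values were adjusted over the 23 clusters. With 3 rats against 3, an exact two-sided permutation test of a single share cannot give a p below 0.1. Since only shares of nuclei were measured, fewer cells of a kind and fewer of its nuclei left after isolation and filters cannot be told apart.

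Few clusters changed within their type beyond the spread between rats. By limma, 2 of 23 clusters (8.70%) passed at an adjusted p under 0.05: the proximal tubule cluster PTnov2 was lower in obese rats (1 of 23, 4.35%) and the Reln+ endothelial cluster, GEC(Reln+), was higher (1 of 23, 4.35%). The rats of the 2 groups did not overlap for 3 of 23 clusters (13.0%), which were these 2 and PTnov1. The other 21 clusters had adjusted p values between 0.581 and 0.970 by limma.

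**Figure D1:**
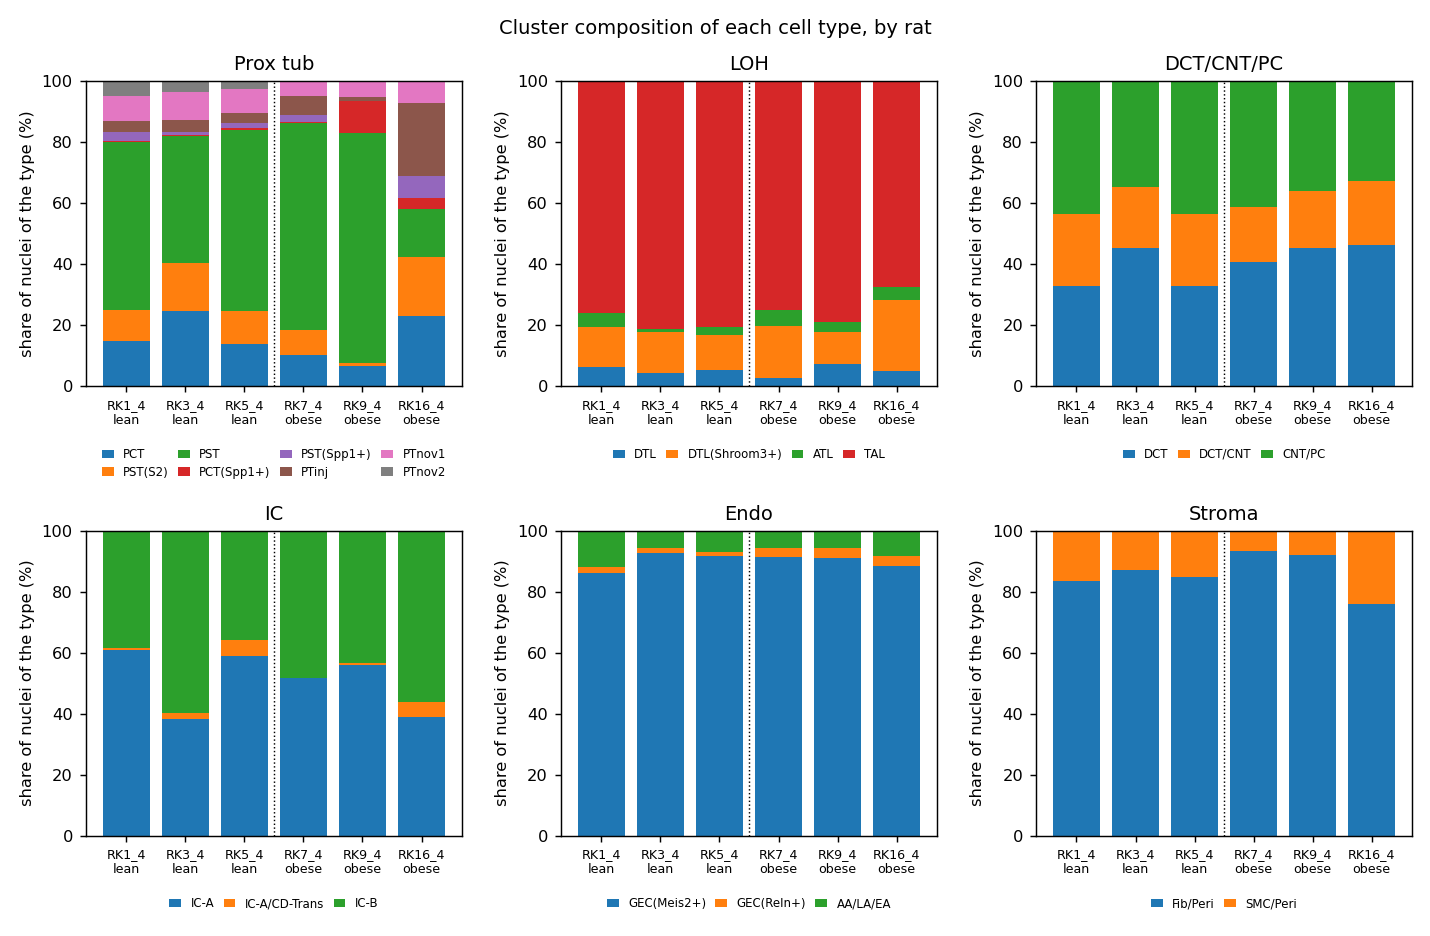
Cluster composition of the 6 cell types with more than 1 cluster, as the share of nuclei of the type (%, vertical axis) in each of 6 rats (horizontal axis; the dotted line parts 3 lean from 3 obese rats on vehicle). In the proximal tubule the bar of RK16_4 stands apart from those of the other obese rats, with PST at 15.5% against 67.8% and 75.4%, and the PTnov2 segment is seen in lean rats only.

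The proximal tubule held 8 clusters, 6437, 6918 and 6405 nuclei in the lean rats and 8004, 40028 and 4949 in the obese rats. PTnov2 is one of a pair of clusters without a segment name. It made up 4.89%, 3.70% and 2.48% of lean proximal tubule nuclei and none in the obese rats. In all, 730 of 19760 lean nuclei were in PTnov2 against 0 of 52981 obese nuclei. A count of 0 here limits the share to 0.00566% (3 counts over the pooled nuclei of the 3 rats), at least 652-fold below the lean share. This limit reflects counting error alone and not the spread between rats. Most of the pooled nuclei were those of RK9_4. Rat by rat, the limits were 0.0375%, 0.00749% and 0.0606%. Without RK9_4 the obese count was 0 of 12953 and the share at least 160-fold lower. The log odds fell by 6.76 (SE 1.17, adjusted p = 0.00458 by limma). The size of this value depends on the 0.5 nuclei added before the log. With 0 nuclei in every obese rat, the obese values differed only through their numbers of proximal tubule nuclei. The SE and p therefore do not measure a spread of PTnov2 among obese rats. The call held at an adjusted p between 0.0112 and 0.0260 by limma when each rat was left out in turn. The lean nuclei of PTnov2 were shallow and rich in mitochondrial transcripts, with medians of 1078, 914.5 and 733 UMIs and 2.77%, 3.67% and 1.96% mitochondrial UMIs. In nuclei with at most 1% mitochondrial UMIs, 3, 4 and 34 PTnov2 nuclei were left in the lean rats. These were 0.0635%, 0.0808% and 0.607% of lean proximal tubule nuclei, against 0 of 2632, 4787 and 3323 obese nuclei. By limma the change passed (log odds -2.42, adjusted p = 0.0416). The counts of RK1_4 and RK3_4 are close to the 3 counts that a 0 allows, so these rats cannot be clearly told from the obese rats under this limit.

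PTnov1, the other cluster without a segment name, made up 8.16%, 8.98% and 8.06% of proximal tubule nuclei in lean rats and 5.01%, 5.38% and 7.05% in obese rats. All 3 obese rats were below all 3 lean rats, at 8.40% ± 0.505 (SD, n = 3) in lean against 5.82% ± 1.09 in obese, but the difference did not pass (log odds -0.40, SE 0.20, adjusted p = 0.581 by limma). PTnov1 nuclei had the highest mitochondrial share of the 23 clusters in each of the 6 rats, with medians of 3.51%, 5.74% and 3.23% in lean and 12.7%, 12.3% and 6.53% in obese rats. With nuclei of at most 1% mitochondrial UMIs, 5 lean nuclei and 1 obese nucleus of the cluster were left. In nuclei with at least 1000 UMIs the groups overlapped, at 7.64%, 6.25% and 1.84% in lean and 0.824%, 5.76% and 2.56% in obese rats.

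The obese rats did not share 1 proximal tubule profile. PST, the mature straight segment, was the largest cluster in lean rats at 55.1%, 41.5% and 59.5%. In obese rats it reached 67.8% in RK7_4 and 75.4% in RK9_4 but was 15.5% in RK16_4, so the means lay close together (52.0% ± 9.36 against 52.9% ± 32.6, SD, n = 3 each; adjusted p = 0.970 by limma). The PST nuclei of RK7_4 and RK9_4 also differed in depth and mitochondrial content. Their median UMIs were 639 and 887, against 4047, 3220 and 2226 in lean rats and 1810 in RK16_4. Their median mitochondrial share was 5.33% and 4.28%, against at most 0.0837% in each of the other 4 rats. Among nuclei with at most 1% mitochondrial UMIs, PST made up 73.4%, 57.2% and 67.9% of the proximal tubule in lean rats and 29.1%, 45.1% and 22.4% in obese rats. Of the PST nuclei of RK7_4 and RK9_4, 767 of 5425 and 2158 of 30173 met this limit. There the groups did not overlap, although the change missed the threshold (log odds -1.46, SE 0.48, adjusted p = 0.0558 by limma). In nuclei with at least 1000 UMIs, PST was 56.0%, 46.0% and 70.1% against 29.0%, 64.0% and 18.2%, and the groups overlapped (adjusted p = 0.459 by limma).

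PTinj, the cluster that the authors named injured proximal tubule, was steady in lean rats and ranged widely in obese rats. It made up 3.60%, 3.86% and 3.28% of lean proximal tubule nuclei against 5.96%, 1.14% and 24.1% in the obese rats. RK9_4 was below and RK7_4 and RK16_4 were above every lean rat, and the difference did not exceed this spread (log odds 0.50, SE 0.65, 95% interval -0.95 to 1.96, adjusted p = 0.611 by limma). Without RK16_4 the direction turned, to a log odds of -0.32. The depth of PTinj nuclei overlapped between the groups, with medians of 3380, 2147 and 1690.5 UMIs in lean and 1835, 2678 and 1826 in obese rats, and a median mitochondrial share of at most 0.208% in every rat. The denominator was not alike: of all proximal tubule nuclei, 6334, 6211 and 5376 had at least 1000 UMIs in the lean rats against 2428, 9105 and 3944 in the obese rats. Among these, PTinj was 3.66%, 3.64% and 2.99% in lean rats and 18.6%, 4.96% and 28.4% in obese rats. The obese rats were then all above the lean rats, and the change passed (log odds 1.55, SE 0.46, adjusted p = 0.0484 by limma). Among nuclei with at most 1% mitochondrial UMIs the shares were 4.41%, 3.62% and 3.14% against 17.5%, 9.07% and 33.4%, which passed as well (log odds 1.74, SE 0.42, adjusted p = 0.0416 by limma). With both a lower and an upper limit on depth, 1000 to 3000 UMIs, the obese share was higher in 8 of 9 pairs of rats but missed the threshold (log odds 1.42, SE 0.53, adjusted p = 0.134 by limma). The shares of PTinj thus depended on which nuclei were kept.

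The Spp1+ clusters, whose marker encodes osteopontin, took different shares in the same obese rats. PCT(Spp1+) made up 0.482%, 0.564% and 0.640% of lean proximal tubule nuclei and 0.312%, 10.4% and 3.56% in the obese rats, a difference carried by RK9_4 and RK16_4 (log odds 1.44, SE 0.82, adjusted p = 0.611 by limma). Leaving out RK7_4, the obese rat with the low share, brought it past the threshold (log odds 2.44, adjusted p = 0.0312 by limma). It passed too in nuclei with at least 1000 UMIs, at 0.489%, 0.628% and 0.707% against 0.988%, 4.07% and 4.13% (log odds 1.47, SE 0.39, adjusted p = 0.0368 by limma). It missed the threshold at 1000 to 3000 UMIs (log odds 1.10, adjusted p = 0.134 by limma) and with at most 1% mitochondrial UMIs (log odds 2.42, adjusted p = 0.0558 by limma), although the obese rats were above the lean rats in both, and without RK9_4 the log odds in all nuclei were 0.65. Of the 4152 PCT(Spp1+) nuclei of RK9_4, 371 reached 1000 UMIs. PST(Spp1+) was 2.87%, 1.04% and 1.44% in lean rats and 2.36%, 0.175% and 7.36% in obese rats, with no difference beyond the spread (log odds -0.10, SE 1.17, adjusted p = 0.970 by limma).

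The mature convoluted and S2 clusters were both lowest in RK9_4. PCT stood at 14.96%, 24.76% and 13.93% in lean and 10.41%, 6.65% and 23.18% in obese rats. PST(S2), the S2 segment of the straight part, stood at 9.93%, 15.6% and 10.7% in lean and 8.17%, 0.897% and 19.3% in obese rats. For both clusters 1 obese rat lay within or above the lean range, and neither differed beyond the spread (log odds -0.44, SE 0.45, and -0.85, SE 1.13; adjusted p = 0.611 for each by limma).

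**Figure D2:**
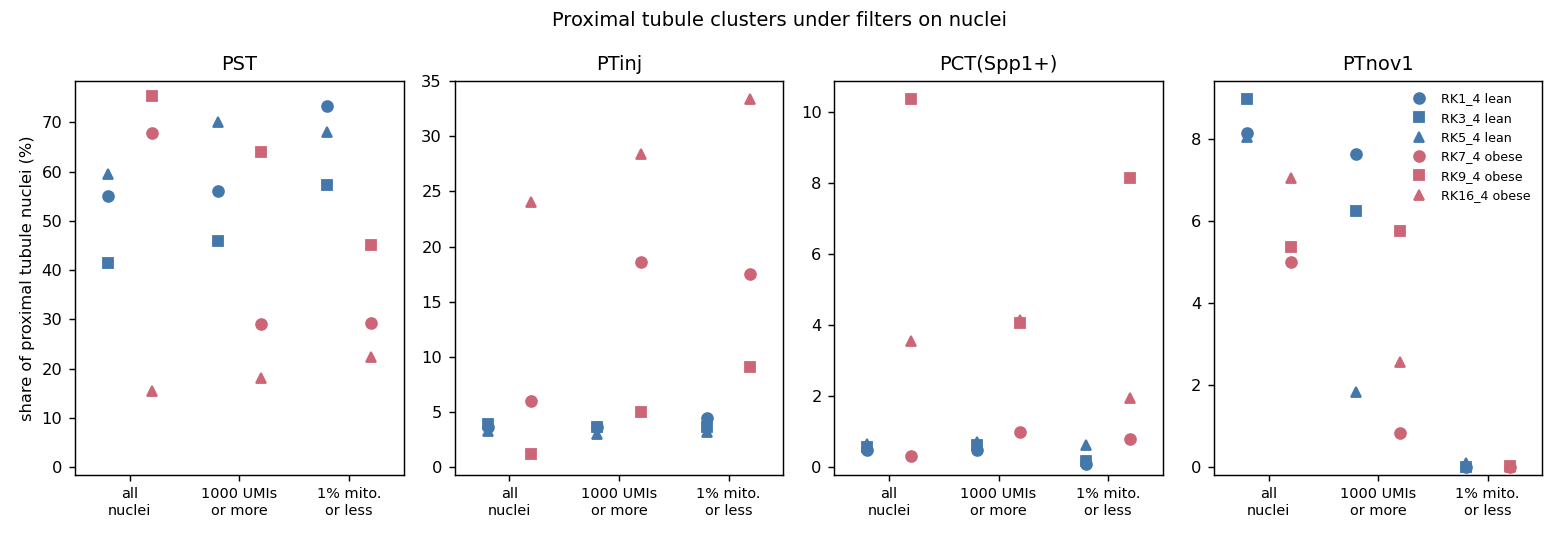
Share of proximal tubule nuclei (%, vertical axis) in 4 clusters for 3 lean (blue) and 3 obese rats on vehicle (red), among all nuclei, nuclei with at least 1000 UMIs and nuclei with at most 1% mitochondrial UMIs (horizontal axis). PTinj overlaps between the groups in all nuclei and does not under either filter, and PST parts the groups only in nuclei with at most 1% mitochondrial UMIs.

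Ratios between clusters do not change with the number of nuclei in the rest of the kidney. Of 15 such ratios, on the log2 scale, 0 passed by limma and 0 by edgeR at an adjusted p under 0.05 (1 of 15, 6.67%, by limma at an unadjusted p under 0.05, and 2 by edgeR), and 2 (13.3%) did not overlap between the groups. The ratio of the straight clusters to the convoluted ones was 1.88 ± 0.593 in lean and 1.90 ± 1.13 in obese rats (log2, SD, n = 3 each), a difference of 0.02 with a 95% interval from -1.26 to 1.30. The ratio of PTinj to the mature clusters PCT, PST and PST(S2) was 0.75 higher in obese rats, with an interval from -1.40 to 2.90, and the ratio of PCT(Spp1+) to PCT was 2.57 higher, with an interval from -0.56 to 5.70. In nuclei with at most 1% mitochondrial UMIs the first of these passed (2.57 on the log2 scale, adjusted p = 0.0262 by limma). The ratio of both Spp1+ clusters to the mature clusters was 1.73 higher, with an interval from -1.20 to 4.65, and that of PST(Spp1+) to PST differed by 0.09, with an interval from -4.24 to 4.42. For all nuclei, these intervals leave room for large changes in either direction.

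In the loop of Henle no cluster passed within its type (0 of 4 by limma, and 0 at an unadjusted p under 0.05). TAL was 76.0%, 81.3% and 80.6% of lean loop nuclei and 75.0%, 78.8% and 67.4% of obese loop nuclei (log odds -0.30, SE 0.24, adjusted p = 0.611 by limma). Obese TAL shares were lower in 8 of 9 pairs of rats, and RK16_4 stood apart from the other obese rats. DTL(Shroom3+), a descending thin limb cluster marked by an actin-binding protein gene, was 13.2%, 13.4% and 11.4% in lean and 17.1%, 10.6% and 23.4% in obese rats. The other descending cluster, DTL, was 6.43%, 4.50% and 5.42% against 2.74%, 7.33% and 5.01%. ATL, the water-impermeable thin ascending limb, was 4.41%, 0.785% and 2.63% in lean and 5.14%, 3.24% and 4.15% in obese rats. In all nuclei the groups overlapped for each of these 3 thin limb clusters, and none passed (log odds 0.31, -0.14 and 0.70 for DTL(Shroom3+), DTL and ATL; adjusted p between 0.611 and 0.743 by limma). The obese loop numbered 584, 709 and 1277 nuclei, so its smallest clusters rest on few nuclei: DTL had 16, 52 and 64, and ATL 30, 23 and 53. The ratio of TAL to the thin limbs was 0.44 lower in obese rats on the log2 scale (95% interval -1.25 to 0.38). Likewise undecided were the ratio of ATL to both descending clusters (0.72, interval -0.75 to 2.19) and that of DTL(Shroom3+) to DTL (0.56, interval -0.63 to 1.75). The DTL nuclei of the obese rats had median mitochondrial shares of 0.786%, 6.58% and 3.05%, each above the highest lean value of 0.389%. Under limits on nuclei every obese rat was below every lean rat for DTL, though the change did not pass. With at least 1000 UMIs DTL was 6.43%, 4.55% and 5.39% of lean and 1.13%, 2.69% and 1.68% of obese loop nuclei (log odds -1.13, SE 0.44, adjusted p = 0.146 by limma). The log odds of DTL were -1.22 at 1000 to 3000 UMIs (adjusted p = 0.134 by limma) and -0.94 with at most 1% mitochondrial UMIs (adjusted p = 0.262 by limma), against -0.14 in all nuclei. DTL(Shroom3+) parted the groups the other way with at most 1% mitochondrial UMIs, at 10.3%, 10.3% and 10.7% in lean and 17.2%, 11.5% and 16.9% in obese rats (adjusted p = 0.601 by limma). It overlapped under both UMI limits. ATL was higher in obese rats in 8 of 9 pairs under each limit and did not pass.

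The distal type was spread over 3 clusters of similar size, and none passed. DCT, where thiazide-sensitive salt uptake takes place, was 32.8%, 45.4% and 32.8% of its type in lean rats and 40.6%, 45.3% and 46.5% in obese rats. RK3_4 had the distal profile of the obese rats, and the groups overlapped (log odds 0.30, SE 0.19, 95% interval -0.12 to 0.73, adjusted p = 0.611 by limma). DCT/CNT, the cluster between both segments, was 23.8%, 19.8% and 23.6% against 18.0%, 18.6% and 20.9%, lower in obese rats in 8 of 9 pairs. CNT/PC, the connecting tubule and principal cells that take up sodium and water under hormonal control, was 43.4%, 34.8% and 43.7% against 41.4%, 36.1% and 32.7%. Neither passed (log odds -0.20, SE 0.18, and -0.16, SE 0.17; adjusted p = 0.611 for each by limma). The ratio of CNT/PC to DCT was 0.41 lower in obese rats on the log2 scale, with an interval from -1.10 to 0.27, so a fall to 0.467 of the lean ratio and a rise to 1.21 times it both lie within it.

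Intercalated cells varied more among lean rats than between the groups. IC-A, the acid-secreting type, was 60.9%, 38.4% and 59.0% in lean and 51.7%, 56.0% and 38.8% in obese rats, and IC-B, the base-secreting type, was 38.4%, 59.8% and 35.9% against 48.3%, 43.3% and 56.3%. One rat in each group, RK3_4 and RK16_4, had more IC-B than IC-A nuclei. The log2 ratio of IC-A to IC-B differed by -0.27 with an interval from -1.19 to 0.65 (adjusted p = 0.661 by limma), and the log odds within the type were -0.16 for IC-A and 0.19 for IC-B (SE 0.29 and 0.26). IC-A/CD-Trans, the cluster between intercalated and collecting duct cells, numbered 6, 18 and 62 nuclei in lean and 0, 2 and 70 in obese rats (log odds -0.82, SE 1.03, adjusted p = 0.611 by limma). The 0 of 323 in RK7_4 allows a share of up to 0.929%, above the 0.715% of RK1_4 and below the 1.81% and 5.10% of the other lean rats.

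**Figure D3:**
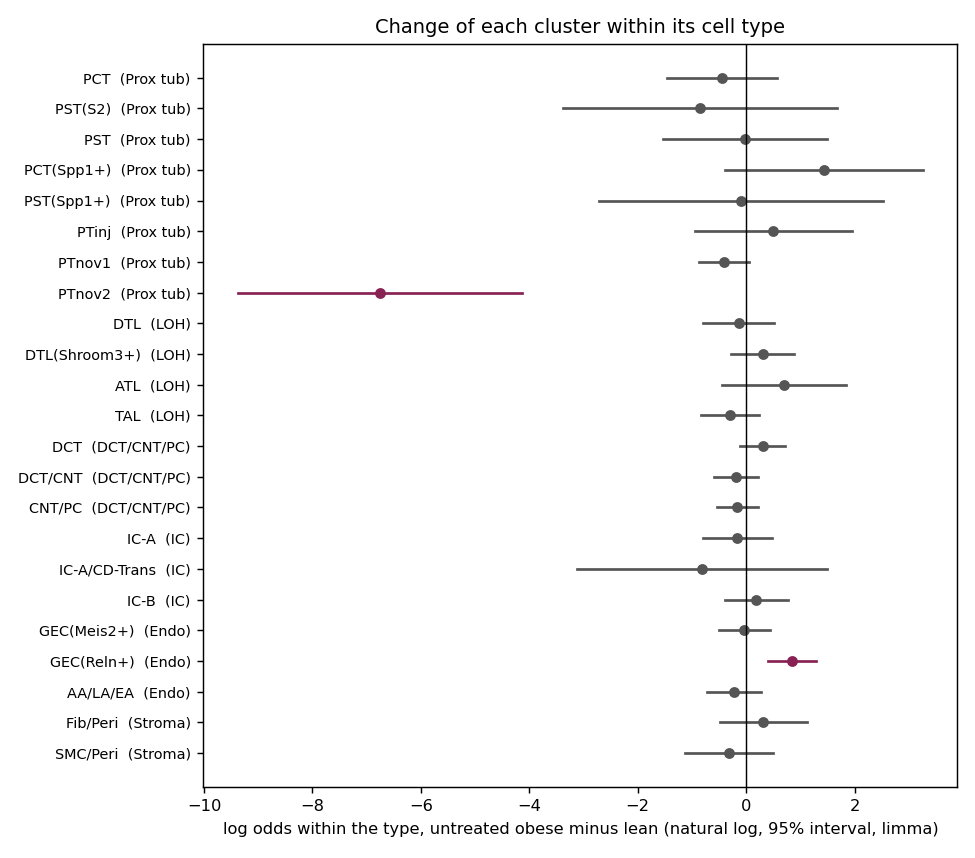
Difference in log odds of each of 23 clusters within its cell type, obese rats on vehicle minus lean rats (natural log, horizontal axis), with 95% intervals from limma over 12 rats; the type stands in brackets after each cluster on the vertical axis, and purple marks an adjusted p under 0.05. The purple points are PTnov2 at -6.76 and GEC(Reln+) at 0.84, and every other interval spans 0.

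In the endothelium, the Reln+ cluster made up a larger share in obese rats. GEC(Reln+), named by the authors as glomerular endothelium marked by the reelin gene, was 2.15%, 1.42% and 1.04% of lean and 3.13%, 3.43% and 3.36% of obese endothelial nuclei. Every obese rat was above every lean rat, at 1.54% ± 0.563 against 3.31% ± 0.154 (SD, n = 3 each), a 2.15-fold difference (log odds 0.84, SE 0.20, 95% interval 0.39 to 1.28, adjusted p = 0.0217 by limma; exact permutation p = 0.1, the smallest possible). The cluster is small, with 45, 27 and 18 nuclei in lean and 10, 16 and 50 in obese rats, and in RK7_4 the 95% Wilson interval of the share runs from 1.71% to 5.67%. Of 17 alternative fits, 10 lost the call and 7 kept it. The call was lost without RK3_4, RK5_4, RK9_4 or RK16_4 (adjusted p between 0.0600 and 0.0955 by limma) and in edgeR (adjusted p = 0.0522). By limma it was also lost with the 2 groups alone, without the treated rats (adjusted p = 0.207), on the arcsine scale (adjusted p = 0.216) and with rats thinned to equal numbers of nuclei (adjusted p = 0.128). In nuclei with at least 1000 UMIs the groups overlapped, at 2.11%, 1.52% and 1.42% against 1.23%, 3.72% and 5.79% (adjusted p = 0.459 by limma). The call held in nuclei with at most 1% mitochondrial UMIs, at 1.03%, 1.23% and 1.13% against 2.00%, 3.50% and 8.42% (adjusted p = 0.0416 by limma). Among all nuclei the mean share of the cluster was 0.185% in lean and 0.171% in obese rats, while that of the endothelium was 11.8% and 5.14%.

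The other endothelial clusters did not pass. GEC(Meis2+), the larger cluster that the authors named glomerular, was 86.0%, 92.7% and 91.8% of lean and 91.2%, 91.0% and 88.4% of obese endothelial nuclei (log odds -0.03, SE 0.21, 95% interval -0.50 to 0.43). AA/LA/EA, the arteriolar and arterial endothelium, was 11.9%, 5.85% and 7.16% against 5.64%, 5.57% and 8.21% (log odds -0.23, SE 0.22, adjusted p = 0.611 by limma). RK1_4 had the highest arterial share, and without it this difference was close to 0 at -0.01. The log2 ratio of GEC(Meis2+) to the other endothelium differed by -0.05, with an interval from -0.78 to 0.68, and that of AA/LA/EA to the other endothelium by -0.33, with an interval from -1.10 to 0.44.

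Podocytes, the epithelial cells that wrap the glomerular capillaries, were related to GEC(Meis2+), a cluster that the authors named glomerular endothelium. GEC(Meis2+) held from 86.0% (RK1_4) to 92.7% (RK3_4) of endothelial nuclei. Whether it holds endothelium of glomeruli alone was not tested, so the ratio need not be one within glomeruli. The log2 ratio of podocyte to GEC(Meis2+) nuclei was -3.40, -2.58 and -3.00 in lean rats and -2.37, -1.02 and -1.47 in obese rats. All obese rats were above all lean rats, a 2.60-fold difference with a 95% interval from 1.38 to 4.90 (log2 1.38, SE 0.41, unadjusted p = 0.00719 and adjusted p = 0.108 by limma). The ratio passed when RK7_4 was left out (log2 1.75, adjusted p = 0.0232 by limma). Its direction turned in nuclei with at least 1000 UMIs (log2 -0.46) and in nuclei with at most 1% mitochondrial UMIs (log2 -0.76). Podocytes of the obese rats had median UMIs of 590, 934.5 and 2156 against 4204, 3024 and 2277 in lean rats, and 1 of the 56 podocyte nuclei of RK7_4 reached 1000 UMIs.

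The stroma differed among the obese rats in opposite directions. Fib/Peri, the fibroblasts and pericytes that make matrix and support capillaries, was 83.3%, 87.0% and 84.8% of lean stromal nuclei and 93.1%, 92.0% and 75.9% of obese ones. SMC/Peri, the smooth muscle cells and pericytes, makes up the rest, with 12, 45 and 128 nuclei in the obese rats. RK7_4 and RK9_4 lay above and RK16_4 below the lean range of Fib/Peri, and the difference did not exceed this spread (log odds 0.31, SE 0.36, 95% interval -0.49 to 1.12, adjusted p = 0.611 by limma). The log2 ratio of Fib/Peri to SMC/Peri differed by 0.45, with an interval from -0.72 to 1.63. Without RK16_4 the log odds were 0.77 at an adjusted p of 0.0702 by limma.

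At the intermediate level, 1 of 11 types (9.09%) passed as a share of all nuclei by limma, 3 of 11 (27.3%) at an unadjusted p under 0.05. The loop of Henle fell in obese rats, from 22.6% ± 5.75 to 5.65% ± 4.08 (SD, n = 3 each; log odds -1.80, SE 0.54, adjusted p = 0.0351 by limma), and this call was lost when any rat other than RK16_4 was left out (adjusted p between 0.0583 and 0.189), in edgeR (adjusted p = 0.103) and in nuclei with at least 1000 UMIs (adjusted p = 0.112). The proximal tubule was higher and the endothelium lower at an unadjusted p of 0.0385 and 0.0293, with an adjusted p of 0.141 for each by limma. Without RK16_4, 10 of 11 types passed, with the proximal tubule higher and 9 types lower. These are shares of 1 total, so a higher proximal tubule share lowers the others, and the 9 lower calls are not separate results. RK16_4 had a proximal tubule share of 37.8%, within 1 percentage point of the lowest lean rat, while RK7_4 and RK9_4 had 75.8% and 92.1%. The distal and intercalated types, which this level splits, all showed RK7_4 and RK9_4 below and RK16_4 above every lean rat. DCT was 3.68%, 5.85% and 4.39% in lean against 2.39%, 0.823% and 9.58% in obese rats, and IC-B was 1.93%, 3.92% and 2.58% against 1.48%, 0.292% and 6.18%. DCT/CNT, CNT/PC and IC-A had the same order, with adjusted p values of 0.308 for each by limma.

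Outside the proximal tubule, loop and immune nuclei parted the groups. With proximal tubule nuclei taken from the total, loop nuclei were 42.7%, 29.4% and 41.4% of lean and 22.9%, 20.5% and 15.7% of obese nuclei, below every lean rat in every obese rat (log odds -0.91, adjusted p = 0.137 by limma). Immune nuclei were 2.04%, 1.43% and 1.59% against 17.2%, 12.0% and 3.05%, above every lean rat in every obese rat, and passed (log odds 1.73, adjusted p = 0.0118 by limma). This fit was not repeated under limits on nuclei or with rats left out. Of immune nuclei, 209 of 209, 89 of 118 and 96 of 167 reached 1000 UMIs in lean rats. In obese rats 148 of 438, 392 of 413 and 98 of 249 did. Of all nuclei, immune nuclei were 1.25%, 0.779% and 0.988% against 4.16%, 0.952% and 1.90%, and did not pass (adjusted p = 0.308 by limma). Podocytes were 1.66%, 3.56% and 1.89% of the nuclei outside the proximal tubule in lean and 2.20%, 6.08% and 5.82% in obese rats (adjusted p = 0.175 by limma). Endothelial nuclei were 20.5%, 23.0% and 16.5% against 12.5%, 13.5% and 18.2%, and stromal nuclei 6.86%, 6.82% and 5.59% against 6.86%, 16.4% and 6.52%, with overlap in both. The log2 ratio of loop nuclei to distal and intercalated nuclei was 0.70, -0.28 and 0.32 in lean rats and -0.74, -0.62 and -1.69 in obese rats. Although these did not overlap, the difference of -1.27 did not pass (SE 0.76, 95% interval -2.95 to 0.42, adjusted p = 0.600 by limma).

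The change of a cluster among all nuclei is the sum of the change of its type and its own change within the type, on the natural log scale and averaged over rats. For TAL the change was -1.68, of which -1.60 was that of the whole loop and -0.07 that of TAL within it. GEC(Meis2+) changed by -1.26 as its type did, with 0.0012 within it. For GEC(Reln+) a type change of -1.26 met a change of 0.82 within the endothelium, and for ATL a type change of -1.60 met 0.68. In the proximal tubule the type changed by 0.46, and PCT(Spp1+) added 1.39 within it, PTinj 0.42, PTnov1 -0.38 and PST(S2) -0.82. These sums are descriptions without a test of their own. Outside the proximal tubule, the change of the type was the larger of both parts for all clusters except IC-A/CD-Trans, which had no nuclei in RK7_4.

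**Figure D4:**
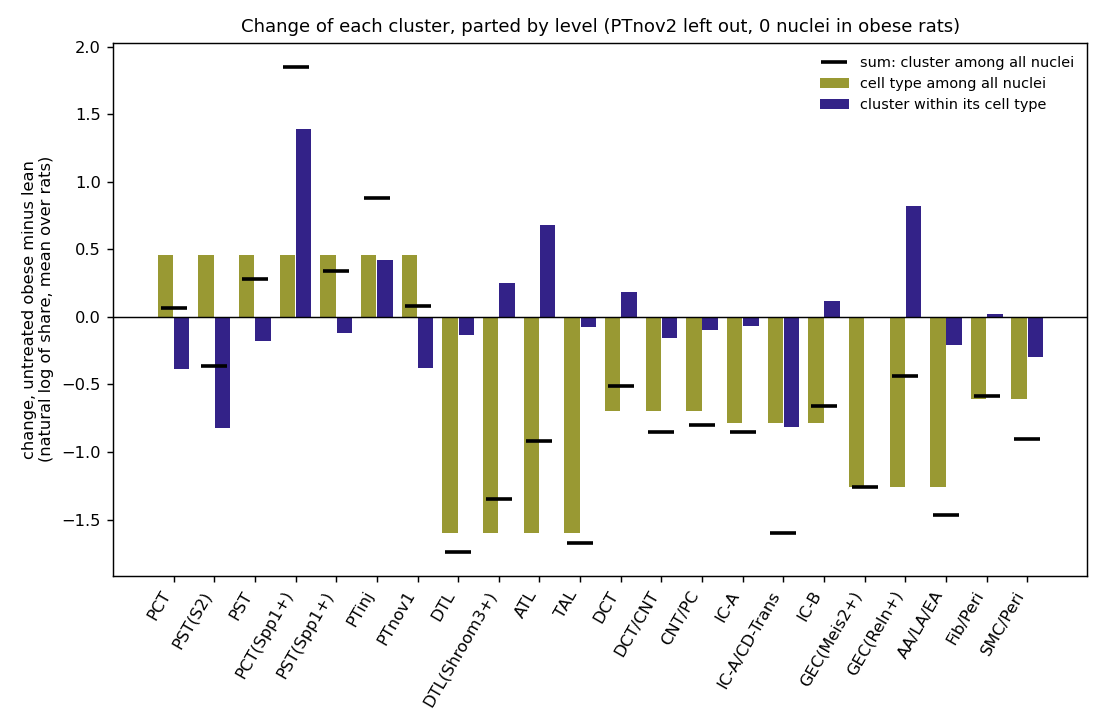
Change of 22 clusters between obese rats on vehicle and lean rats (natural log of the share, mean over 3 rats a group, vertical axis), parted into the change of the cell type among all nuclei (olive bars) and of the cluster within its type (dark blue bars); black marks are their sum. Loop clusters share a type part of -1.60, while the parts within the type range from -0.14 for DTL to 0.68 for ATL.

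The difference in make-up between 2 rats was measured as the percentage of nuclei of a type that would have to be in another cluster for the profiles to match. In the proximal tubule its median was 16.6% for the 3 pairs of lean rats, 30.2% for the 9 pairs of an obese and a lean rat, and 52.3% for the 3 pairs of obese rats, with the highest value, 66.7%, between RK9_4 and RK16_4. Stroma had the same order, at 2.15%, 8.33% and 16.1%. The high values among obese rats were those of the pairs with RK16_4, and RK7_4 and RK9_4 differed by 18.0% in the proximal tubule and 1.09% in stroma. In the loop the medians were 4.58%, 8.05% and 8.56%. In the other types the lean rats were the more spread out, at 12.6%, 7.84% and 5.24% in the distal type, 22.5%, 12.4% and 12.9% in intercalated cells and 5.84%, 3.37% and 2.64% in the endothelium. The high lean values were those of pairs with RK3_4 in the distal type and intercalated cells, and with RK1_4 in the endothelium. The remaining lean pair differed by 0.252%, 4.38% and 1.31% in these types. Pairs share rats, so these distances were not tested.

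**Figure D5:**
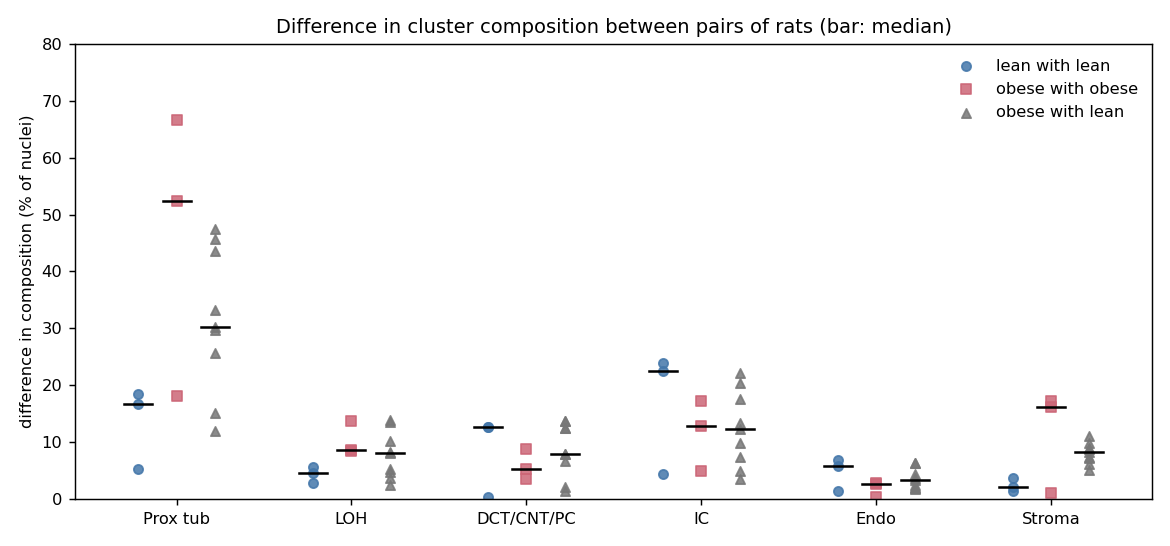
Difference in cluster composition between 2 rats (% of nuclei of the type, vertical axis) for 6 cell types (horizontal axis), with 1 point a pair: 3 pairs of lean rats (blue circles), 3 of obese rats on vehicle (red squares) and 9 of an obese and a lean rat (grey triangles); bars are medians. Pairs of obese rats reach 66.7% in the proximal tubule, where lean pairs stay at or below 18.4%.

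How evenly a type was spread over its clusters was expressed as the effective number of clusters, the exponential of the Shannon entropy. In the proximal tubule, with 8 clusters, it was 4.23, 4.67 and 3.76 in lean rats and 3.09, 2.44 and 5.96 in obese rats. RK7_4 and RK9_4, with the most PST, were less even than every lean rat, and RK16_4 was more even (exact two-sided permutation p = 0.8). In nuclei with at most 1% mitochondrial UMIs the difference of -0.387 became 1.25, with an exact p of 0.1. The loop had 2.20, 1.85 and 1.96 in lean and 2.16, 2.07 and 2.43 in obese rats (exact p = 0.3), and the distal type 2.91, 2.85 and 2.91 against 2.83, 2.83 and 2.85 (exact p = 0.2). Intercalated cells, endothelium and stroma had exact p values of 0.8, 0.7 and 0.7, and all 6 types had an adjusted p of 0.8.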

How the data were processed

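Nuclei from kidneys of 3 lean and 3 obese rats on vehicle were compared. The authors counted UMIs with Cell Ranger (version 6 in the submitters' processing notes, another version in the study's methods) on the rat genome (rn6, with introns), corrected ambient RNA, removed doublets and nuclei with under 200 or over 3000 genes or over 15% mitochondrial UMIs, merged 12 rats, corrected batches with Harmony and clustered with Seurat. The deposited table gives UMIs as counts without normalization and the mitochondrial measure in percent of UMIs; rat, group and cluster names are deposited as other values. Columns of 0 samples were left unmapped. The clusters were made from all 12 rats together, so cluster borders depend on them.

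Shares of clusters within types and ratios between clusters were computed per rat, leaving out 61 nuclei whose cluster and type names disagree. Shares of intermediate types kept these nuclei. Log odds (0.5 nuclei added to the cluster, 1 to the total) and log2 ratios were fitted with limma 3.58.1 in R 4.3.3 over 4 groups of 3 rats (8 residual degrees of freedom within types), with Benjamini-Hochberg adjustment. Where a p of limma stands alone it is adjusted over all clusters, types or ratios of its kind. All 23 clusters, 11 types and 15 ratios are named. The clusters, types and ratios were chosen with earlier results of these data known. Rats stand for separate animals, but p values measure the spread of 3 libraries a group.

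Depth per rat was 11898496 to 49272672 UMIs. Wilson intervals (95%) and the limit set by a count of 0 (3 counts) reflect counting error alone. The fits were tested on simulated data: changes of 1, 2 and 3 in log odds were recovered for 30.5%, 69% and 77.5% of changed clusters within types, and for 9%, 66% and 90% of changed intermediate types. Each simulated set changed 1 cluster or type, drew each independently around its lean mean and gave all groups the same spread. In the data the spread differed between the groups and the clusters of a type are tied by their sum, so these rates may not hold for this comparison. Alternatives were an arcsine scale, the centred log-ratio, 1 nucleus added, edgeR 4.0.16 (also with TMM), the 2 groups alone, robust moderation, limits on UMIs or mitochondrial share, thinning to equal numbers of nuclei, a minimum of 20 nuclei and each rat left out. Python 3.11.15 with numpy 2.4.6, pandas 2.3.3, scipy 1.17.1 and matplotlib 3.10.9 was used. Counts per gene were not analysed here.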

Additional observations from a re-analysis of the deposited data

How the results depend on the processing

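PTnov2 kept its direction and passed in 17 alternatives; the minimum of 20 nuclei, which leaves 16 clusters to test, removed it and GEC(Reln+). Of 877 values recomputed for 49 clusters, types and ratios under the alternatives, 748 kept their direction and their side of the threshold, 21 lost a call, 21 gained one and 87 changed direction; for the changes of direction listed here the cause was not tested. No paired analysis was possible because the rats' names in the table carry no replicate numbers.

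Of the 2 clusters that passed within types, 1 remained, with 0 higher in obese rats, on the arcsine scale, in edgeR, with the 2 groups alone, at 1000 to 3000 UMIs and with rats thinned to equal numbers of nuclei, and 0 (0 higher, 0 lower) with at least 20 nuclei in each rat. By contrast, 2 were higher in obese rats with the centred log-ratio, with at least 1000 UMIs and with at most 1% mitochondrial UMIs. Without 1 rat, the number ranged from 1 to 3, with 0 to 2 higher. Of the 11 intermediate types, 0 passed (0 lower) in edgeR, with the 2 groups alone and under the limits of 1000 UMIs, 1000 to 3000 UMIs and 1% mitochondrial UMIs. With the centred log-ratio and in edgeR with TMM, 3 passed (1 higher, 2 lower), and without proximal tubule nuclei in the total 1 was higher and 0 lower. Without 1 rat the number ranged from 0 to 10, with 0 to 1 higher and 0 to 9 lower. Of the ratios, 1 passed (1 higher) with at most 1% mitochondrial UMIs, and from 0 to 1 (0 to 1 higher) without 1 rat.

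Changes of direction, none of a value that had passed, were as follows (obese minus lean). On the arcsine scale they were PST 0.0020 and PST(Spp1+) 0.026 within their type, and the ratio of straight to convoluted clusters -0.0053. With the centred log-ratio (natural log) they were PCT 0.46, PST(S2) 0.029, PST 0.67, PST(Spp1+) 0.73, PTnov1 0.47 and IC-A 0.19 within types, and DCT 0.034 and podocytes 0.27 among all nuclei. In edgeR (log2) they were PST 0.024, PST(Spp1+) 0.88 and GEC(Meis2+) 0.00085 within types, podocytes 0.17 among all nuclei, straight to convoluted -0.020 and GEC(Meis2+) to other endothelium 0.00086. In edgeR with TMM (log2) they were DCT 0.14, IC-B 0.0014, stroma 0.20 and podocytes 0.58. Without proximal tubule nuclei in the total (log odds) they were DCT 0.46, DCT/CNT 0.16, CNT/PC 0.17, IC-A 0.10, IC-B 0.31, stroma 0.38 and podocytes 0.67.

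Limits on nuclei gave these changes of direction, in log odds for shares and log2 for ratios. With at least 1000 UMIs they were PCT 0.33, PST(S2) 0.028 and GEC(Meis2+) 0.12 within types, IC-B 0.021 among all nuclei, straight to convoluted -0.93, PST(Spp1+) to PST -0.89, GEC(Meis2+) to other endothelium 0.18, podocytes to GEC(Meis2+) -0.46 and the effective number of proximal tubule clusters 0.536. At 1000 to 3000 UMIs they were PST(S2) 0.11, TAL 0.074, DCT/CNT 0.10 and GEC(Meis2+) 0.12 within types, DCT 0.12, DCT/CNT 0.015 and IC-B 0.16 among all nuclei, PST(Spp1+) to PST -1.87, TAL to thin limbs 0.11 and GEC(Meis2+) to other endothelium 0.18. With at most 1% mitochondrial UMIs they were PCT 0.72, PST(S2) 0.036, DCT -0.057 and CNT/PC 0.093 within types, IC-B 0.060 among all nuclei, straight to convoluted -1.66, PST(Spp1+) to PST -1.71, CNT/PC to DCT 0.13, podocytes to GEC(Meis2+) -0.76 and the effective number of proximal tubule clusters 1.25. With rats thinned to equal numbers of nuclei they were PST(Spp1+) 0.046 and GEC(Meis2+) 0.0088 within types, PST(Spp1+) to PST -0.14 and GEC(Meis2+) to other endothelium 0.038.

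Leaving out each rat in turn moved log odds within types from -0.56 to 0.85 for PST, -0.93 to 0.97 for PST(Spp1+), -1.56 to 0.080 for PST(S2), -0.32 to 1.34 for PTinj, -0.38 to 0.13 for DTL, -0.45 to 0.043 for IC-A, -1.70 to 0.049 for IC-A/CD-Trans and -0.26 to 0.11 for GEC(Meis2+). Among all nuclei the range was -0.97 to 0.057 for podocytes, -1.21 to 0.064 for DCT and -1.43 to 0.13 for IC-B. For log2 ratios it was -0.47 to 0.64 for straight to convoluted, -1.81 to 2.02 for PST(Spp1+) to PST, -0.37 to 0.16 for GEC(Meis2+) to other endothelium and -0.50 to 1.96 for PTinj to the mature clusters. For the effective number of clusters it was -1.45 to 0.310 in the proximal tubule, -0.116 to 0.0545 in intercalated cells, -0.0162 to 0.108 in the endothelium and -0.222 to 0.00382 in the stroma.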
